A study of Mus musculus with 20 samples.

Results

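The 8 genes described here form the core transcription loop of the mammalian circadian clock. They are the activators Arntl (also called Bmal1), Clock and Npas2, the period genes Per1, Per2 and Per3, and the cryptochromes Cry1 and Cry2. They were picked by gene symbol, matched through the Ensembl identifier, from a set that was proposed with earlier results of these data known. All 8 were among the 15956 genes listed in the count table and among the 13991 genes tested. RNA was sequenced from the left ventricle of 20 male mice, 5 in each of 4 diet groups. The NP mice ate a normal-protein diet and served as controls, the LP mice ate a diet low in casein, its protein source, the HF mice ate a high-fat diet with normal protein, and the HF + LP mice ate a high-fat diet low in protein. All mice were given the diets from middle age, and the sources used here name no strain, allele or other treatment. All mice are labelled as 18 months old, whereas the study's methods place tissue collection earlier. The methods state that mice had free access to food on a light-dark cycle and were killed in the fed state in the middle of the light phase, and the sources used here give no collection time for each mouse. Body weights from the labels were 33.3 to 52.3 g in NP, 29.9 to 36.9 g in LP, 56.1 to 60.9 g in HF and 41.2 to 56.1 g in HF + LP.

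The product of Arntl, BMAL1, pairs with CLOCK or, in many tissues, with its relative NPAS2, and the pair binds E-box sequences to switch on the Per and Cry genes. PER and CRY proteins then enter the nucleus and inhibit that pair, so that their own transcription falls until they are degraded. In the heart, as in other tissues, Arntl and Npas2 transcripts on the one side and Per transcripts on the other rise and fall in opposite phases over the day. A second loop of nuclear receptors, the REV-ERBs and RORs, acts on Arntl, and the D-box factors DBP, TEF and HLF act on several Per genes.

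Some of the DNA letters through which these loops are wired lay in the RefSeq promoter windows (GRCm38.p6) of the genes themselves. A window runs from upstream of a transcript start to just past it, and 7 of the 8 genes had an entry, which was searched on both strands for 3 motifs that did not overlap in any hit. The E-box (CACGTG, bound by CLOCK and BMAL1) was found for Cry1 and Per1, and 7.15% of all 32851 windows held it. The D-box (TTATGTAA) was found for Per3, where 2 copies lay close together, and 0.938% of the windows held it. The ROR element (AGTAGGTCA) was found for Arntl, and 0.192% of the windows held it. The stretches that hold these letters are given with the motif in capitals and each sequence read in the direction of the gene. They lie at chr10:85185089-85185134 for Cry1 (minus strand), chr11:69098763-69098808 for Per1 (plus strand), chr4:151044796-151044890 for Per3 (minus strand) and chr7:113207530-113207556 for Arntl (plus strand). The first 3 are upstream of the transcript start of their window and the last is just downstream of it, in the first transcribed bases. For Per1 and for Arntl the hit was in 1 of 2 windows. The Per1 stretch lies inside the full span of the gene, downstream of its first annotated base.
Cry1: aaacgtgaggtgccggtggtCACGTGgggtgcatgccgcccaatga
Per1: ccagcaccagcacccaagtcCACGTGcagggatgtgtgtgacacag
Per3: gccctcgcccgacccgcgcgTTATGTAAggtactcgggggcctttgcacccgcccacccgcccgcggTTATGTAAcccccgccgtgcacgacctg
Arntl: aaggcagaaAGTAGGTCAgggacggag
A match of letters is a description of the window and was not tested as a binding site.

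Total counts per library lay between 12559607 and 23331907. Levels are given as CPM, that is counts scaled to a common library size with TMM, which corrects for differences in library composition. QuantSeq primes on the poly(A) tail and reads transcript ends, so long transcripts do not gain CPM over short ones. All 9 ventricular cardiomyocyte markers examined were present, with a median summed level of 56430 CPM in NP (52120 to 63510), 52750 CPM in LP (37000 to 58430), 46040 CPM in HF (40620 to 54020) and 52370 CPM in HF + LP (42350 to 60000). The 5 atrial markers had lower medians in both high-fat diets. Their summed level had a median of 1263 CPM in NP (154.9 to 3598) and 1597 CPM in LP (133.1 to 14810), against 195.4 CPM in HF (114.2 to 12160) and 146.9 CPM in HF + LP (60.2 to 5188), and the ranges overlapped. Medians were higher than in NP for 5 erythroid markers in all other diets (5170 CPM for NP and 8312, 7983 and 9348 CPM for LP, HF and HF + LP) and for 5 adipocyte markers (572.8, 671.8, 843.8 and 829.3 CPM in the same order of diets). For 4 endothelial markers they were 416.9, 414.4, 514.4 and 496.2 CPM. Among the adipocyte markers Fabp4 ranged from 361.7 to 1445 CPM over all mice, and each of the others stayed at or below 71.2 CPM. The adipocyte sum therefore rested mostly on Fabp4. The part of these signals in the clock values was not tested. The library of LP animal 13 stood apart from the others of its diet (median r of log2 CPM with them 0.908, against 0.944 to 0.979 for the other libraries), and the comparisons that use LP are also given without it. In RNA from whole tissue, fewer cells of a type and less RNA per cell cannot be told apart. Each group had 5 mice except where a mouse was left out. The p-values of diet differences weigh these differences against the spread between mice of the same diet, estimated over all the diets in the model.

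The activator Arntl had no value above 1.27 CPM in NP mice and spread more widely in the other diets (log2 SD 0.50 in NP and at least 1.33 in the others). It stood at 0.456, 0.519, 0.541, 0.633 and 1.27 CPM in the 5 NP mice. In LP mice it stood at 0.0743, 0.519, 1.90, 4.96 and 6.35 CPM, the lowest of which is a single read. The values were 0.233, 0.450, 3.06, 5.06 and 6.69 CPM in HF and 0.859, 0.944, 1.95, 5.68 and 6.84 CPM in HF + LP. Thus 2 LP, 3 HF and 2 HF + LP mice had Arntl above 3 CPM and no NP mouse did, while the other mice of the same 3 diets had 0.0743 to 1.95 CPM, so that NP overlapped with every other diet. Its mean normalized count of 40.6 over the 20 mice was under the minimum of 50 for a call.

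Npas2, which can replace CLOCK as the partner of BMAL1, followed a similar pattern at a mean normalized count of 16.0, also under the minimum. It ranged from 0.259 to 0.659 CPM in NP, from 0.445 to 2.60 CPM in LP, from 0.450 to 1.698 CPM in HF and from 0.0630 to 2.05 CPM in HF + LP, where the lowest value is again a single read. Every pair of diets overlapped. Clock, whose product is the usual partner of BMAL1, was measured from far more reads and moved over a smaller range. It stood at 17.4, 20.9, 21.5, 22.9 and 23.6 CPM in NP and at 14.8, 15.1, 20.6, 36.4 and 40.7 CPM in LP. In HF it stood at 22.5, 23.8, 26.2, 26.5 and 28.4 CPM, and in HF + LP at 17.1, 28.6, 30.7, 36.3 and 39.0 CPM. The 2 LP mice with the highest Clock, animals 2 and 5, were also the 2 with the highest Arntl and Npas2, and all diets overlapped.

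**Figure D1:**
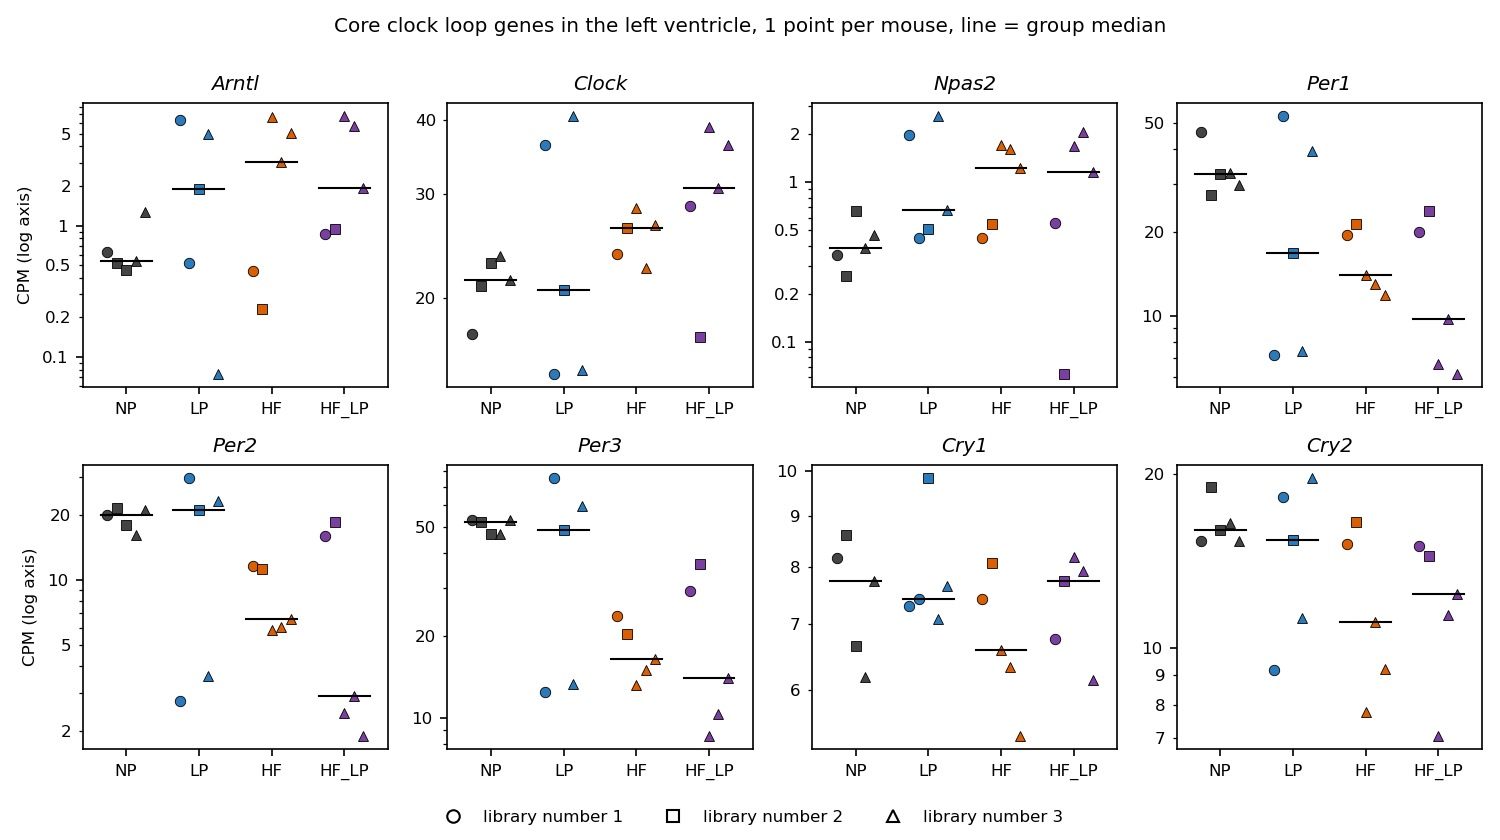
Level of each of the 8 clock genes in each mouse, as CPM on a log axis (y) by diet group (x, HF_LP being HF + LP). Each point is 1 mouse, its shape gives the number in the library name, and the line is the group median. Per1, Per2 and Per3 of the 5 HF mice lie below all 5 NP mice, and the LP and HF + LP mice spread more widely than the NP mice for every gene except Cry1.

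Per3, a period gene that modulates the loop rather than being indispensable to it, was nearly constant in NP mice. The NP values were 47.0, 47.0, 52.3, 53.1 and 53.1 CPM. In HF mice Per3 stood at 13.2, 14.9, 16.4, 20.3 and 23.6 CPM, and all 5 lay below the lowest NP mouse. In HF + LP mice it stood at 8.57, 10.3, 14.0, 29.2 and 36.7 CPM, again all below NP but spread over a wider range than in HF. LP mice had 12.4, 13.4, 48.8, 59.9 and 75.6 CPM, so that 2 lay among the high-fat mice and the other 3 near or above NP. In order of the group means, Per3 was at 50.5 ± 3.22 CPM in NP, 42.0 ± 28.2 in LP, 19.7 ± 12.5 in HF + LP and 17.7 ± 4.22 in HF (mean ± SD, n = 5). The neighbours NP and LP, LP and HF + LP, and HF + LP and HF overlapped.

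Per2, one of the 2 period genes whose products are the main inhibitors of the loop, stood at 16.1, 17.9, 20.0, 21.1 and 21.4 CPM in NP and at 5.87, 6.01, 6.60, 11.2 and 11.5 CPM in HF, without overlap. The HF + LP mice had values of 1.88, 2.41 and 2.90 CPM and values of 15.96 and 18.6 CPM, of which the last lay in the NP range and the one before it just under it. LP mice had 2.74 and 3.57 CPM in animals 2 and 5 and 21.1, 23.1 and 29.7 CPM in the others. Per1, the other main inhibitor and a gene that also responds quickly to hormones and feeding, stood at 27.2, 29.7, 32.6, 32.8 and 46.1 CPM in NP. It stood at 11.8, 13.0, 14.0, 19.6 and 21.4 CPM in HF and at 6.14, 6.67, 9.70, 20.1 and 23.9 CPM in HF + LP. All 10 mice on a high-fat diet therefore lay below the lowest NP mouse for Per1. The LP mice ran from 7.21 and 7.44 CPM in animals 2 and 5 through 16.9 and 39.4 CPM to 52.9 CPM in animal 13.

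The cryptochromes, whose products join PER proteins in the inhibitory complex, varied over smaller ranges. Cry2 stood at 15.3, 15.3, 16.0, 16.5 and 19 CPM in NP and at 7.06, 11.4, 12.4, 14.4 and 15.0 CPM in HF + LP, without overlap. It stood at 7.77, 9.22, 11.1, 15.1 and 16.5 CPM in HF and at 9.17, 11.3, 15.4, 18.3 and 19.7 CPM in LP, both of which overlapped with NP. Cry1 had the smallest within-diet SD of the 8 genes when the 4 diets were pooled, though not within NP or HF, with 6.18 to 8.63 CPM in NP, 7.07 to 9.85 CPM in LP, 5.38 to 8.08 CPM in HF and 6.14 to 8.18 CPM in HF + LP. All 4 diets overlapped for Cry1.

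The spread between mice of 1 diet was wide for most of these genes. The within-diet SD of log2 CPM was 0.25 for the median gene with a mean normalized count over 50, of which there were 10099. It was 1.604 for Arntl, 1.15 for Per2, 1.00 for Npas2, 0.83 for Per1 and 0.79 for Per3. Those values stand at percentiles 97.5 (Per3) to 99.7 (Arntl) of these genes, although Arntl and Npas2 themselves had fewer reads than the genes they are ranked against. Clock (0.43) and Cry2 (0.40) stood at percentiles 85.0 and 81.5, and Cry1 (0.20) at percentile 27.7. For Per3 the SD of log2 CPM was 0.09 in NP, 0.34 in HF, 0.92 in HF + LP and 1.24 in LP. The median gene had an SD of 0.20 in NP, 0.21 in HF, 0.23 in HF + LP and 0.28 in LP. Differences in spread between diets were not tested.

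**Figure D2:**
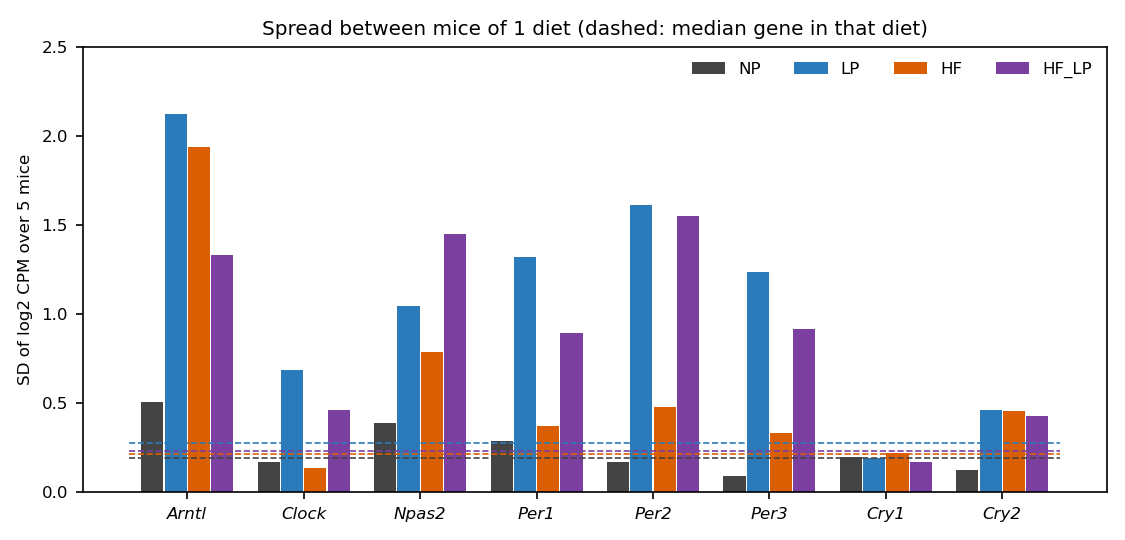
SD of log2 CPM over the 5 mice of each diet (y) for each clock gene (x), with dashed lines for the median gene of each diet. In NP the bars of Per3 (0.09), Per2, Clock and Cry2 are below the NP median gene (0.20), whereas in LP every gene but Cry1 is above the LP median gene (0.28).

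The comparison of HF with NP asks what high fat did at normal protein. None of the 8 genes passed the threshold (edgeR quasi-likelihood test, Benjamini-Hochberg adjusted p below 0.01, with a mean normalized count above 50), against 0.264% of all genes tested. At an unadjusted p under 0.05, 4 of the 8 stood out (Arntl, Npas2, Per1 and Per3), against 13.1% of all genes tested. The log2 difference was −1.52 ± 0.44 (SE) for Per3, with an edgeR adjusted p of 0.0900, the smallest among the 8 genes. It was −1.24 ± 0.61 for Per2 and −1.08 ± 0.47 for Per1, with adjusted p of 0.402 and 0.317. The activators lay on the other side, at 2.21 ± 0.90 for Arntl (adjusted p = 0.276), 1.37 ± 0.64 for Npas2 (0.365) and 0.26 ± 0.25 for Clock (0.745). Cry2 was at −0.47 ± 0.23 and Cry1 at −0.15 ± 0.14. HF and NP did not overlap for Per1, Per2 and Per3, and 5.67% of all genes tested had groups that did not overlap.

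The call in HF against NP depended on the mice in the model and on the program. With only the HF and NP mice in the model, edgeR called Per3 (log2 difference −1.48, adjusted p = 0.000646), when it called 0.461% of 13240 genes. DESeq2 with only these mice, a setting chosen after values had been seen, called Per1 (adjusted p = 2e-05), Per2 (2.39e-06) and Per3 (6.8e-19), against 2.96% of 13240 genes. DESeq2 with all 4 diets in the model called none of the 8, against 1.17% of all genes tested, with an adjusted p of 0.0205 for Per3. Limma voom with weights per diet was also chosen after values had been seen. It called none of the 8 (adjusted p = 0.0188 for Per3), against 113 of 13991 genes. The log2 difference of Per3 moved little, from −1.56 to −1.44 over all settings that kept every mouse, except the animal-number block. Over the same settings, where tested, Arntl ran from 1.495 to 2.28 and Npas2 from 0.85 to 1.41. With each mouse left out in turn the edgeR adjusted p of Per3 lay between 0.0568 and 0.215. The count of 4 genes at an unadjusted p under 0.05 became 2 without NP animal 4 or HF animal 4 and 1 without HF animal 3 or HF animal 5. It became 6 without LP animal 2 and lay between 3 and 5 without any of the other mice, and 10.9% to 15.1% of all genes were at that level in these 20 fits.

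Both diets low in protein were also set against NP. In LP against NP none of the 8 genes was called, against 0% of all genes tested, and Arntl and Npas2 had an unadjusted p under 0.05, against 7.23% of all genes. Their log2 differences were 1.98 ± 0.91 and 1.47 ± 0.64 (edgeR adjusted p = 0.676 and 0.654). The period genes were at −0.44 ± 0.46 (Per1), −0.26 ± 0.59 (Per2) and −0.26 ± 0.43 (Per3), and no gene of the 8 had groups that did not overlap, against 0.786% of all genes. Without LP animal 13 the log2 difference of Per1 became −0.94, that of Per2 −0.62 and that of Per3 −0.60, Per1 joined the genes with an unadjusted p under 0.05 (6.08% of all genes), and none was called. The count of 2 became 0 without NP animal 3, 4 or 5 or LP animal 2 or 5, and 1 without NP animal 6, and over the 20 fits that each leave out 1 mouse the share of all genes was 4.47% to 10.8%. With limma voom and weights per diet Arntl was at 0.92 and Npas2 at 0.96. None of the 8 then had an unadjusted p under 0.05 (5.86% of all genes). Neither Arntl nor Npas2 passed the filter when only LP and NP mice were in the model.

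In HF + LP against NP none was called (0.0286% of all genes tested), and Arntl, Per1 and Per3 had an unadjusted p under 0.05 (8.77% of all genes). The log2 difference was −1.36 ± 0.44 for Per3 and −1.34 ± 0.47 for Per1, with edgeR adjusted p of 0.297 and 0.366. Per2 was at −1.21 ± 0.61, Arntl at 2.25 ± 0.91, Npas2 at 1.34 ± 0.64 and Clock at 0.51 ± 0.25. Groups did not overlap for Cry2, Per1 and Per3, against 2.57% of all genes. DESeq2 with only these 2 groups called Per3 (adjusted p = 0.00882), against 0.454% of all genes. The comparisons with NP share the same 5 NP mice, whose Per and Cry2 levels were the most even of the 4 diets. The count of 3 genes at an unadjusted p under 0.05 became 5 without LP animal 2 or 13, 6 without LP animal 5 or HF + LP animal 1 and 7 without HF + LP animal 2. It became 2, with Arntl lost, without HF + LP animal 3 or 4, and the share of all genes lay between 6.19% and 10.5% over the 20 fits.

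Lowering protein within the high-fat diet asks whether protein restriction altered what the high-fat hearts showed. In HF + LP against HF the 8 log2 differences lay between −0.26 (Per1) and 0.25 (Clock), with none called (0% of all genes tested), none at an unadjusted p under 0.05 (4.84%) and none without overlap (1.18%). The 95% intervals were −0.74 to 1.07 for Per3, −1.25 to 1.31 for Per2 and −1.62 to 1.696 for Arntl (log2 scale), and each included 0. Cry1, the most precisely measured, had an interval of −0.16 to 0.41.

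Adding fat to the low-protein diet was examined in HF + LP against LP. None of the 8 was called (0.1% of all genes tested), Per3 alone had an unadjusted p under 0.05 (15.9% of all genes), and no groups were without overlap (1.87%). Per3 was at −1.09 ± 0.43 (edgeR adjusted p = 0.221), Per2 at −0.96 ± 0.61 and Per1 at −0.90 ± 0.47, while Arntl was at 0.27 ± 0.80. Without LP animal 13 these were −0.76 for Per3, −0.59 for Per2, −0.40 for Per1 and −0.04 for Arntl, and none of the 8 had an unadjusted p under 0.05. None had one without LP animal 15 or HF + LP animal 3 or 4 either, while 2 did without LP animal 5 or HF + LP animal 1 and 3 did without LP animal 2 or HF + LP animal 2. The share of all genes in these fits lay between 12.3% and 21.3%. For the interaction of fat and protein content none was called (0%) and none had an unadjusted p under 0.05 (7.17%). The interaction was largest for Arntl at −1.94 ± 1.21 and Npas2 at −1.504 ± 0.87, and for the period genes it was 0.18 (Per1), 0.28 (Per2) and 0.42 (Per3). Without LP animal 13 it was 0.68, 0.65 and 0.76 for these period genes, −2.25 for Arntl and −1.75 for Npas2, and none of the 8 had an unadjusted p under 0.05 (6.22% of all genes). The test for any difference among the 4 diets called none (0.479%) and gave an unadjusted p under 0.05 for Per1 and Per3 (15.9%), with an edgeR adjusted p of 0.269 and 0.0917. That count of 2 became 1 without NP animal 4, 5 or 6 or animal 3, 4 or 5 of HF or of HF + LP, and 4 without HF + LP animal 2, while 13.7% to 19.1% of all genes were at that level over the 20 fits.

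**Figure D3:**
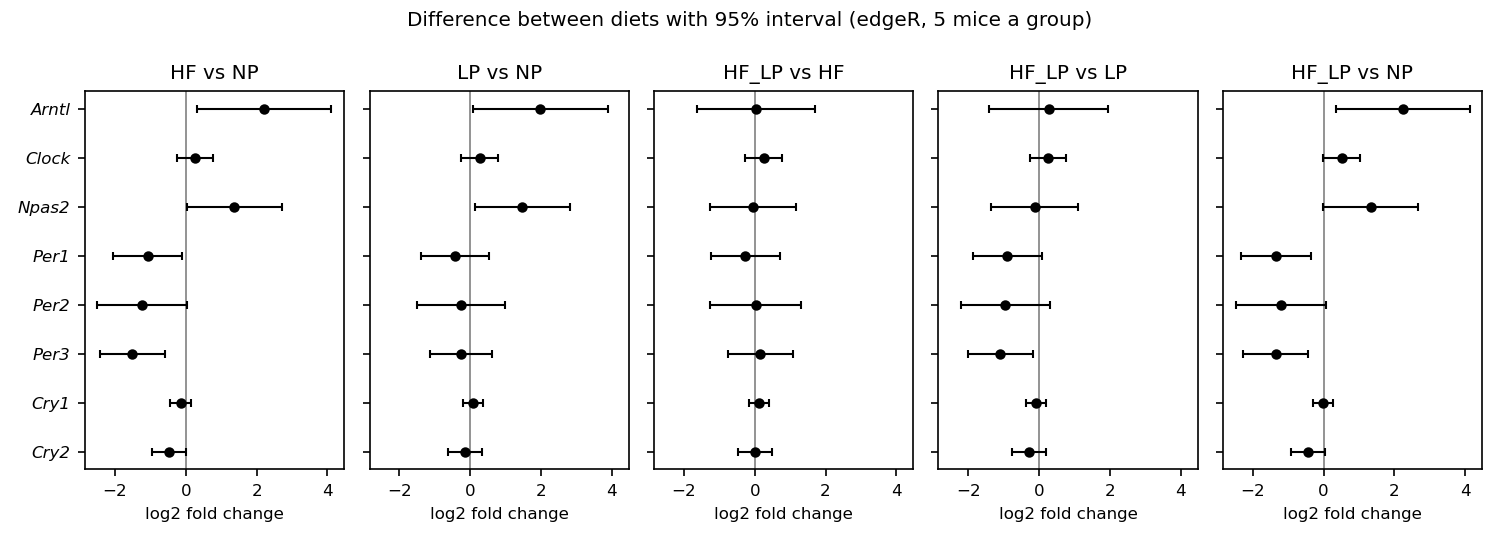
Log2 difference (x) of each clock gene (y) in 5 comparisons of diets, with 95% intervals from the edgeR model of all 20 mice. In both comparisons with NP that add fat, the period genes lie at −1.08 or below and Arntl and Npas2 at 1.34 or above, and in HF_LP vs HF every interval includes 0.

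The library names carry a number of 1, 2 or 3 whose meaning the labels do not give, and every diet holds all 3 values. In both high-fat diets the number went with the clock genes. The 6 HF and HF + LP mice with number 3 (animals 3, 4 and 5 of each diet) had Arntl at 1.95 to 6.84 CPM, and the 4 with number 1 or 2 had 0.233 to 0.944 CPM. Npas2 was at 1.155 to 2.05 CPM in the former and at 0.0630 to 0.552 CPM in the latter. The repressors were split the other way, with Per2 at 1.88 to 6.60 CPM under number 3 and 11.2 to 18.6 CPM under numbers 1 and 2. Per1 (6.14 to 14.0 against 19.6 to 23.9 CPM), Per3 (8.57 to 16.4 against 20.3 to 36.7 CPM) and Cry2 (7.06 to 12.4 against 14.4 to 16.5 CPM) did not overlap either. Clock and Cry1 overlapped between the numbers. Of all genes tested, 1.18% did not overlap between these sets of 6 and 4 mice. The high-fat mice were split in this way after the values had been seen, so these ranges are a description.

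The other diets did not share the split. In NP the mice with number 3 had Per3 at 47.0 and 53.1 CPM and those with number 1 or 2 had 47.0 to 53.1 CPM. In LP the 2 mice with high Arntl and low Per2, animals 2 and 5, carried numbers 1 and 3, and animals 13 and 15, with low Arntl and high Per2, carried the same 2 numbers. The title of LP animal 5 calls its library the second sample of that animal, and no first one was analysed here. Tested beside diet over all 20 mice, the number called none of the 8 (0% of all genes tested), and Npas2 had an unadjusted p under 0.05 (4.15% of all genes). Without LP animal 2, or without LP animal 15, 6 of the 8 genes had an unadjusted p under 0.05 for the number, against 6.32% and 5.15% of all genes in those fits, and none was called. Without NP animal 5 or 8 that count was 2 (4.30% and 3.80% of all genes), and without LP animal 5 or HF + LP animal 2 it was 0 (3.95% and 6.39%).

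Diet differences were also examined with the number taken into account. Per3 in HF was below NP within each number, at 23.6 against 53.1 CPM under number 1, 20.3 against 49.6 CPM under number 2 and 14.8 against 50.05 CPM under number 3 (group means of 1 to 3 mice). With the number as a term in the model, the log2 difference of Per3 in HF against NP was −1.44, that of Per2 −1.14 and that of Per1 −1.01. The difference of Arntl went from 2.21 to 1.495 and that of Npas2 from 1.37 to 0.85, and neither kept an unadjusted p under 0.05. Within numbers, Arntl in HF was at 0.450 against 0.633 CPM under number 1, at 0.233 against 0.488 CPM under number 2 and at 4.94 against 0.904 CPM under number 3, so that its direction was not the same in the 3 numbers. In HF + LP against NP, Per3 was at 29.2, 36.7 and 10.95 CPM under numbers 1, 2 and 3, each below the NP value of that number. With the number in the model, Arntl in that comparison went from 2.25 to 1.65 and no longer had an unadjusted p under 0.05, and Npas2 went from 1.34 to 0.75. Per2 (−1.39) came to have one, and Per1 (−1.36) and Per3 (−1.39) kept theirs, so that the count stayed at 3, against 8.18% of all genes.

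The 8 genes were then compared with each other between mice of the same diet. Log2 CPM values were centred on the mean of each diet, and all 28 pairs were tested with 100000 permutations of mice within diets (two-sided, Benjamini-Hochberg adjustment over the 28 pairs). Of these, 21 passed an adjusted p of 0.05, and they were the 21 pairs without Cry1, with an absolute r of 0.65 to 0.96. The 7 pairs with Cry1 had r between −0.35 and 0.30 and none passed. Pairs of other genes were not tested in this way, so no share over all pairs can be set beside these counts.

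The sign of r followed the role of the genes in the loop. The 3 period genes varied together, with r of 0.92 for Per1 and Per2, 0.91 for Per1 and Per3, and 0.96 for Per2 and Per3 (Spearman rho 0.86, 0.85 and 0.97, permutation adjusted p of 0.000373, 0.0016 and 0.00116). The 3 activators also varied together, with r of 0.65 for Arntl and Clock, 0.73 for Arntl and Npas2, and 0.78 for Clock and Npas2. All 9 pairs of an activator with a period gene were negative, from −0.73 (Arntl and Per2) to −0.90 (Clock with Per1 and with Per3). Cry2 went with the period genes (r of 0.74 to 0.81) and against the activators, with r = −0.91 and rho = −0.94 for Arntl and Cry2 (permutation p = 1e-05, the smallest that 100000 permutations can give, adjusted p = 0.00028).

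**Figure D4:**
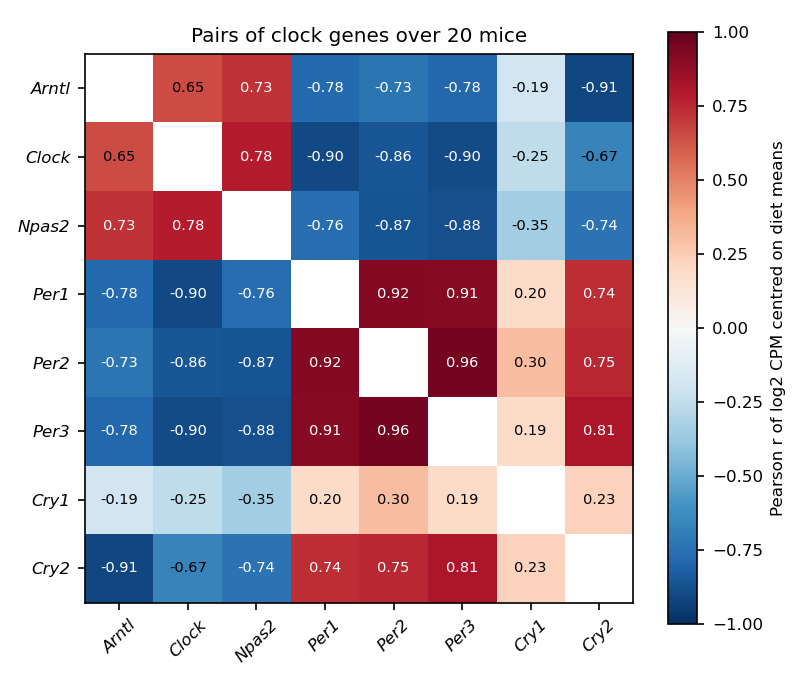
Pearson r of log2 CPM centred on diet means over the 20 mice for each pair of the 8 clock genes (both axes), from blue (−1) through white (0) to red (1). The block of Per1, Per2, Per3 and Cry2 and the block of Arntl, Clock and Npas2 are positive within and negative between, and the Cry1 row lies between −0.35 and 0.30.

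With each mouse left out in turn, 21 pairs passed each time, and after leaving out the 2 mice farthest from the median of the first gene 20 passed, Clock and Npas2 going from r = 0.78 to 0.65. With values centred on diet and number, 20 passed as well, with r of −0.89 for Arntl and Cry2, −0.89 for Clock and Per3, and 0.95 for Per2 and Per3. The exception was Arntl and Clock, which went from 0.65 to 0.60. This centring used the same effect of the number for all diets, so a split seen only in the high-fat diets was removed only in part. Mice were permuted within diets without regard to the number. Over the 20 centred mice the largest gap between neighbours was 0.113 to 0.217 of the range for each gene that stood first in a pair except Npas2 (0.375, set by 1 mouse).

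Within diets, however, the mice could lie in separate sets. For Per2 the gap between 2 sets of 2 and 3 mice took up 0.780 of the range in HF mice and 0.748 in both LP and HF + LP mice, and for Per3 it took up 0.715 in LP. The share alone does not measure distance, since it was highest, at 0.866, for Per3 in NP, where all mice lay between 47.0 and 53.1 CPM. The r values above therefore rest in part on the difference between such sets, and a set of 2 or 3 mice is too small for an r of its own. With only the 10 NP and HF mice, a setting chosen after the values had been seen, 3 of the 28 pairs passed, Arntl and Cry2 (r = −0.95), Npas2 and Per3 (−0.91) and Per2 and Per3 (0.95). The other 18 of the 21 pairs without Cry1 kept their sign and did not pass, and the 6 pairs with Clock had an absolute r of 0.15 to 0.36. Pairs of other genes were not tested in these mice either.

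Correlations of Arntl on each side of its largest gap are given as a description, and their difference was not tested. Of the values centred on diet means, 6 mice lay below the largest gap of Arntl and 14 above it. Below the gap r of Arntl was −0.12 with Clock, −0.50 with Npas2, 0.22 with Per1, 0.59 with Per2 and 0.46 with Per3. Above the gap it was 0.53, 0.63, −0.54, −0.50 and −0.68 with the same genes, so that all 5 had the opposite sign below it. Arntl and Cry2 had r of −0.87 below and −0.82 above the gap.

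**Figure D5:**
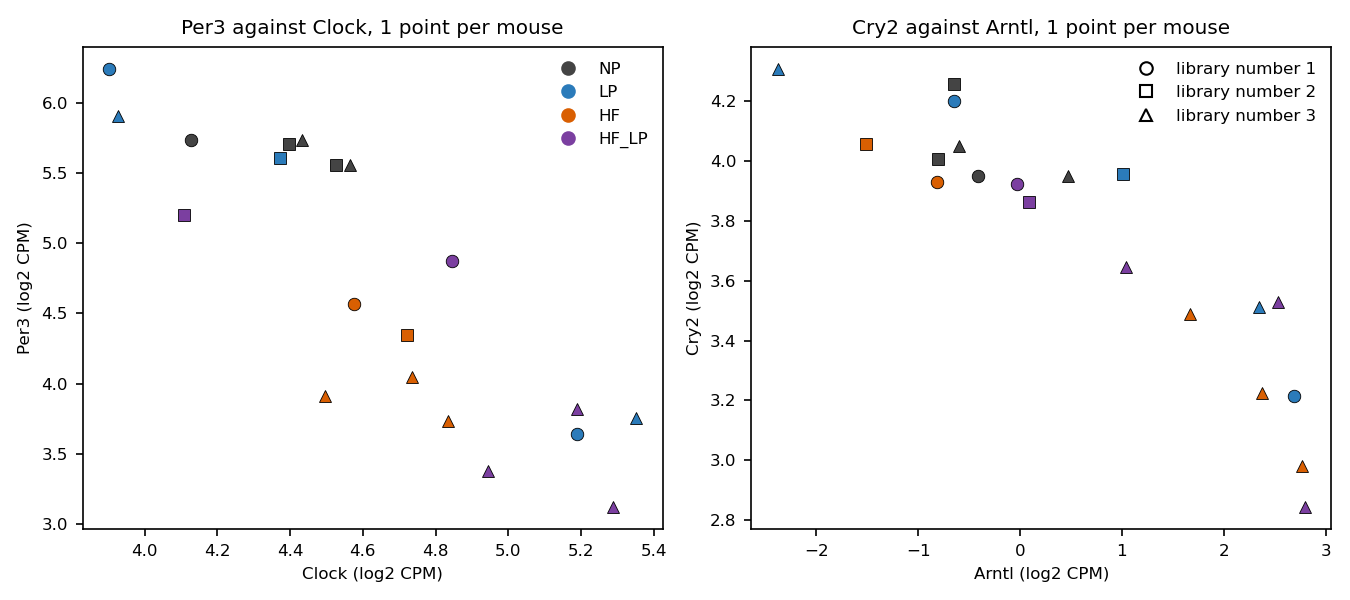
Per3 against Clock (left) and Cry2 against Arntl (right) in log2 CPM, before centring, with 1 point per mouse, coloured by diet and shaped by the number in the library name. LP mice (blue) lie at both ends of each plot, the NP mice (grey) lie close together at high Per3 and Cry2, and the 6 high-fat mice with number 3 lie at low Per3 and Cry2.

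The genes whose pattern over the 20 mice was most like that of Arntl and of Per2 were listed from 10093 other genes with a mean normalized count over 50, in log2 CPM centred on diet means. These are descriptions with no test, and the mice share their libraries and diets across all genes. Nearest to Per2 was Dbp, the D-box factor and a direct target of CLOCK and BMAL1, with r = 0.97. It was followed by Nr1d2, which encodes the REV-ERB beta receptor (0.93), Rhobtb1 (0.92), Herpud1 (0.91) and Tef, another D-box factor (0.91). Most opposite to Per2 were Adam19 (−0.96), Slc25a36 (−0.89), Auts2 (−0.89), Ccdc69 (−0.88) and Vps37b (−0.88). Most like Arntl were Ypel2 (0.91), Gm43244 (0.88), Fam220a (0.86), Ahsa2 (0.85) and Tatdn1 (0.84). Most opposite to it were Tspan4 (−0.93), Cygb, which encodes cytoglobin (−0.90), Tef (−0.89), Bcl9 (−0.88) and Rufy1 (−0.88). With each mouse left out in turn, r of Dbp with Per2 stayed between 0.97 and 0.98 and r of Tspan4 with Arntl between −0.94 and −0.91.

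Other clock-related genes were counted in lists. Of 12 genes of the second loop and the D-box factors, all tested, 0 were called in any comparison. In HF against NP, 2 were lower at an unadjusted p under 0.05, Ciart, a repressor of the loop (log2 difference −1.41 ± 0.62), and Hlf (−0.76 ± 0.35), against 13.1% of all genes tested, and the median of the list was −0.48 against −0.00 for all genes. In HF + LP against NP, Hlf (−0.86 ± 0.35), Tef (−0.85 ± 0.38) and Bhlhe41 (−0.57 ± 0.25) were lower at that level, Nfil3, a D-box repressor, was higher (0.94 ± 0.41), against 8.77% of all genes, and the median was −0.50. Dbp was at −1.21 ± 0.67 and −1.10 ± 0.67 in the same comparisons, with 93.9 to 139 CPM in NP, 9.33 to 172 CPM in LP, 28.4 to 74.0 CPM in HF and 13.4 to 110 CPM in HF + LP. In the other 3 pairwise comparisons none of the 12 had an unadjusted p under 0.05.

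The other lists are to be read against the same 13.1% of all genes in HF against NP. Of 20 tested modifiers and partners of clock proteins, 3 were lower in HF than in NP at an unadjusted p under 0.05, Ddb1 among them (−0.23 ± 0.10), with a list median of −0.05. Of 8 tested clock-controlled output genes, 1 was higher in HF, Cdkn1a, which encodes the cell cycle inhibitor p21 (1.35 ± 0.29, edgeR adjusted p = 0.0222). Glucocorticoid-responsive genes had 2 of 11 higher in HF with a median of 0.20, one of them again Cdkn1a, which is on both lists. Immediate early genes had 2 of 7 higher in HF with a median of 0.29, Egr1 (0.64 ± 0.19) and Atf3 (1.107 ± 0.29). In HF + LP against HF, 2 of these 7 were lower, Egr1 (−0.76 ± 0.19) and Junb (−0.51 ± 0.21), with a list median of −0.51 and 4.84% of all genes at that level. Both also had an unadjusted p under 0.05 in the interaction of fat and protein (7.17% of all genes), at −0.96 ± 0.27 and −0.65 ± 0.29, with a list median of −0.54. None of the genes on these lists was called in any comparison.

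Each gene was identified by its Ensembl entry on GRCm38. Arntl lies on chromosome 7 (113207465 to 113314126), Per3 on chromosome 4 (151003652 to 151044665), Per1 on chromosome 11 (69095217 to 69109960), Per2 on chromosome 1 (91415982 to 91459324) and Npas2 also on chromosome 1 (39193731 to 39363236). Clock lies on chromosome 5 (76209868 to 76304792), Cry1 on chromosome 10 (85131700 to 85185064) and Cry2 on chromosome 2 (92403646 to 92434043). Exons of Arntl and Cry2 overlap an antisense or noncoding gene on the opposite strand (Gm45355 and D930015M05Rik), neither of which is in the count table, while Per3 lies within Camta1 (37110 counts over the 20 mice) and Npas2 spans the pseudogene Gm3617 (327 counts), both on the same strand, in the table and without shared exons. How reads of overlapping genes were assigned is not given in the sources used here.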

How the data were processed

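Left ventricular RNA of 20 mice was sequenced by the authors with QuantSeq 3′ libraries and aligned with BlueBee software. The submitters' processing notes list GRCm38 and DESeq2 1.22.2, and the counting program and annotation are not given in the sources used here. The deposited values were raw counts per Ensembl gene, without normalization. Symbols were matched for 15917 of 15956 genes, and every listed gene had at least 60 counts over all libraries.

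Counts were analysed with edgeR 4.0.16 in R 4.3.3 (filterByExpr by diet, TMM, quasi-likelihood F test with all 4 diets in 1 model, Benjamini-Hochberg adjustment over 13991 genes). A call needed an adjusted p below 0.01 with a mean normalized count above 50, the thresholds of the study's methods. Errors of log2 differences are SE from the F statistic. Correlations used log2 CPM (prior count 2). The scripts were tested on simulated data. The 8 genes, the lists and the tests were chosen with earlier results of these data known. All 8 genes were named in every comparison, with up to 4 genes per other list by the smallest p over the 4 diets, further genes that passed an unadjusted p of 0.05 in the second loop list and Dbp having been chosen after their values were seen. Groups came from the sample titles. Alternatives were RLE size factors, DESeq2 1.42.0, limma 3.58.1 (voom) with weights per diet, other filters and thresholds, the library number as a term, a block on animal number, a model of only 2 groups, and leaving out each mouse. Promoter windows were from RefSeq (GRCm38.p6), gene coordinates from GENCODE on GRCm38.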

Additional observations from a re-analysis of the deposited data

Results flagged for a closer look

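Cry1 in LP animal 20 stood at 3.32 log2 CPM (9.85 CPM), with the gap to the next LP mouse taking up 0.763 of the range of the 5 LP mice. It was the only 1 of 32 sets of 5 mice (8 genes in 4 diets) with so distant a mouse, and chance alone gives about 1 in 20 such sets. Cry1 in the other LP mice was 7.07 to 7.65 CPM.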

How the results depend on the processing

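The count of called clock genes stayed at 0 under 237 alternatives (8 results under each setting that could be fitted). It became 1 (Per3) in HF against NP with only the 2 groups in the edgeR model, 3 (Per1, Per2, Per3) in the same comparison with DESeq2 on only the 2 groups, and 1 (Per3) in HF + LP against NP with DESeq2 on only the 2 groups. The last 2 settings, voom with weights per diet, the split at the largest gap and the correlations in NP and HF mice alone (3 pairs passing, against 21) were chosen after the data were seen. Of the log2 differences of single genes, 1283 kept their direction and side of the threshold, 5 came to pass it and 68 turned their sign, all of them uncalled and most near 0.

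With the replicate block on animal number, 0 of the 8 genes were called in every comparison and the counts at an unadjusted p under 0.05 were 6 in HF against NP (12.02% of all genes under the block), 7 in LP against NP (5.75%), HF + LP against NP (9.41%), the interaction (4.20%) and the test for any diet difference (10.5%), 2 in HF + LP against LP (5.17%) and 0 in HF + LP against HF (5.47%). The numbers do not pair the samples, since same-numbered mice are different animals and their deviations correlated between −0.556 and 0.475 (HF and HF + LP), −0.483 and 0.128 (NP and HF), and −0.289 and 0.153 (NP and HF + LP). The block turned the sign of Cry1 in LP against NP (−0.038), of Per2 (−0.39) and Per3 (−0.0012) in HF + LP against HF, and of Arntl (−1.79), Clock (−0.42), Cry2 (0.27), Per1 (0.69), Per2 (0.93) and Per3 (0.57) in HF + LP against LP. The library number in the model turned Per2 in HF + LP against HF (−0.25), Arntl in HF + LP against LP (−0.41) and Cry1 in HF + LP against NP (0.026). Voom turned Per2 (−0.55) and Per3 (−0.0345) in HF + LP against HF and Clock in the interaction (0.077), and DESeq2 on 2 groups turned Cry2 (−0.0036) and Per2 (−0.0003) in HF + LP against HF. Under the block, a mouse whose animal number no other mouse carries adds nothing to a diet difference. Such mice were NP animals 6 and 8 and LP animals 13, 15 and 20, so LP rested on animals 2 and 5 alone. Those LP mice had the lowest Per2 and the highest Arntl of their diet. The cause of the sign turns was not tested.

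With each mouse left out, signs turned in HF + LP against HF for Arntl (−0.49 to 0.51), Npas2 (−0.37 to 0.27), Cry2 (−0.10 to 0.16), Per2 (−0.50 to 0.28) and Per3 (−0.19 to 0.33). They turned in HF + LP against LP for Arntl (−0.20 to 0.81) and Npas2 (−0.47 to 0.37), in LP against NP for Cry1 (−0.0178 to 0.13) and Per2 (−0.62 to 0.0069), and in HF + LP against NP for Cry1 (−0.0831 to 0.0347). In the interaction they turned for Clock (−0.16 to 0.23), Cry1 (−0.0231 to 0.14), Per1 (−0.14 to 0.68) and Per2 (−0.24 to 0.65). Centring on diet and number turned r of Cry1 with Arntl (0.0227), Cry2 (−0.0018) and Per3 (−0.0308). Arntl and Npas2 had few reads, 1 in some libraries, which limits their precision.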
